A study of Homo sapiens with 6 samples.

Results

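Genes of the fibrillar extracellular matrix were read on 6 whole-transcript arrays. The cells were U-2 OS, a line from a human osteosarcoma. The genes were taken by symbol: every collagen chain, laminin chain, fibrillin and fibulin, with FN1, EFEMP1, EFEMP2, ELN, SPARC, POSTN and TNC. That rule covers 70 protein-coding genes in RefSeq, of which 13 had a named probe set, among 14884 named genes in all. The 13 were the 3 fibrillins (FBN1, FBN2, FBN3), the 6 fibulins (FBLN1, FBLN2, FBLN5, FBLN7, EFEMP1, EFEMP2), FN1, TNC, ELN and COL26A1. Of 44 collagen genes 1 was named and of 12 laminin genes 0, so the set is one of fibrillins, fibulins and fibronectin, and the other 57 genes were not analysed here.

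All cells had been infected with a retroviral vector for progerin, held in puromycin (5 µg/ml) for 3 days, and collected 4 days after infection. Progerin is the truncated, permanently farnesylated lamin A of Hutchinson-Gilford progeria. On 3 arrays the vector carried wt-progerin, which has no further change, and on 3 it carried S22A-progerin, in which alanine replaces a serine that mitotic kinases phosphorylate as the lamina breaks down. The comparison asks how expression differs with that serine replaced, and cells without progerin were not analysed here. Values are log2 expression, differences are S22A-progerin minus wt-progerin, and each group has n = 3 arrays, described by the labels as independent replicates.

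Fibronectin is a secreted glycoprotein that cells pull into fibrils through integrins, and the fibrils act as a template on which other matrix proteins are laid down. Fibrillins polymerise into microfibrils, which carry latent TGF-beta complexes and guide the deposition of elastin. Fibulins bind to microfibrils, elastin and basement membranes and bring lysyl oxidases to tropoelastin, where these enzymes start the crosslinks of the elastic fibre. Osteoblast-lineage cells make fibronectin and fibrillin microfibrils as parts of bone matrix.

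The arrays had medians of 6.04 to 6.09 over 53617 probe sets. The first principal component of the named genes parted the groups with 69.1% of the variance, and S22A-progerin replicate 3 stood apart from its group on the second, which held 11.1%. LMNA, the gene for lamin A, read 8.17, 8.15 and 8.10 on the wt-progerin arrays and 8.31, 8.26 and 8.29 on the S22A-progerin arrays. The difference of 0.15 (SE 0.051) did not pass (adjusted p = 0.0796), though it did after a second quantile normalization (0.17, adjusted p = 0.0456) and with dim genes left out (adjusted p = 0.0237). The LMNA probe set does not check the S22A change. Of the mesenchymal markers, VIM (vimentin) was read at 10.81 to 10.91 over the 6 arrays. ENG had means of 8.77 in wt-progerin and 9.58 in S22A-progerin, THY1 of 8.06 and 7.74, and S100A4, the dimmest, of 4.75 and 5.13. The epithelial marker KRT18 was brighter than VIM, at 11.42 and 11.94, and the other epithelial markers measured were dimmer than VIM. Of the bone lineage markers, RUNX2 had means of 8.77 in wt-progerin and 8.03 in S22A-progerin, SPP1 of 7.18 and 8.36, SP7 of 6.25 and 6.24, and IBSP of 3.86 and 3.88. No detection call was used here that would part low signal from none.

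Of the 13 matrix genes, 6 were lower in S22A-progerin and 0 were higher at an adjusted p under 0.05 (limma, adjusted over all genes tested). They were FBN1, EFEMP2, FBLN5, FBLN1, FN1 and EFEMP1, and their falls ran from 1.34-fold to 1.71-fold. The share that fell was 46.2%, where 14.6% of all genes were called lower, 10.8% higher and 25.4% in either direction. In 7 of the 13 every S22A-progerin array was below every wt-progerin array, against 23.6% of all genes. The median difference of the 13 was -0.12, and -0.19 without S22A-progerin replicate 3, beside -0.00367 for all genes. The arrays measure RNA in bulk, so fewer cells that make a transcript and less of it per cell cannot be told apart.

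**Figure D1:**
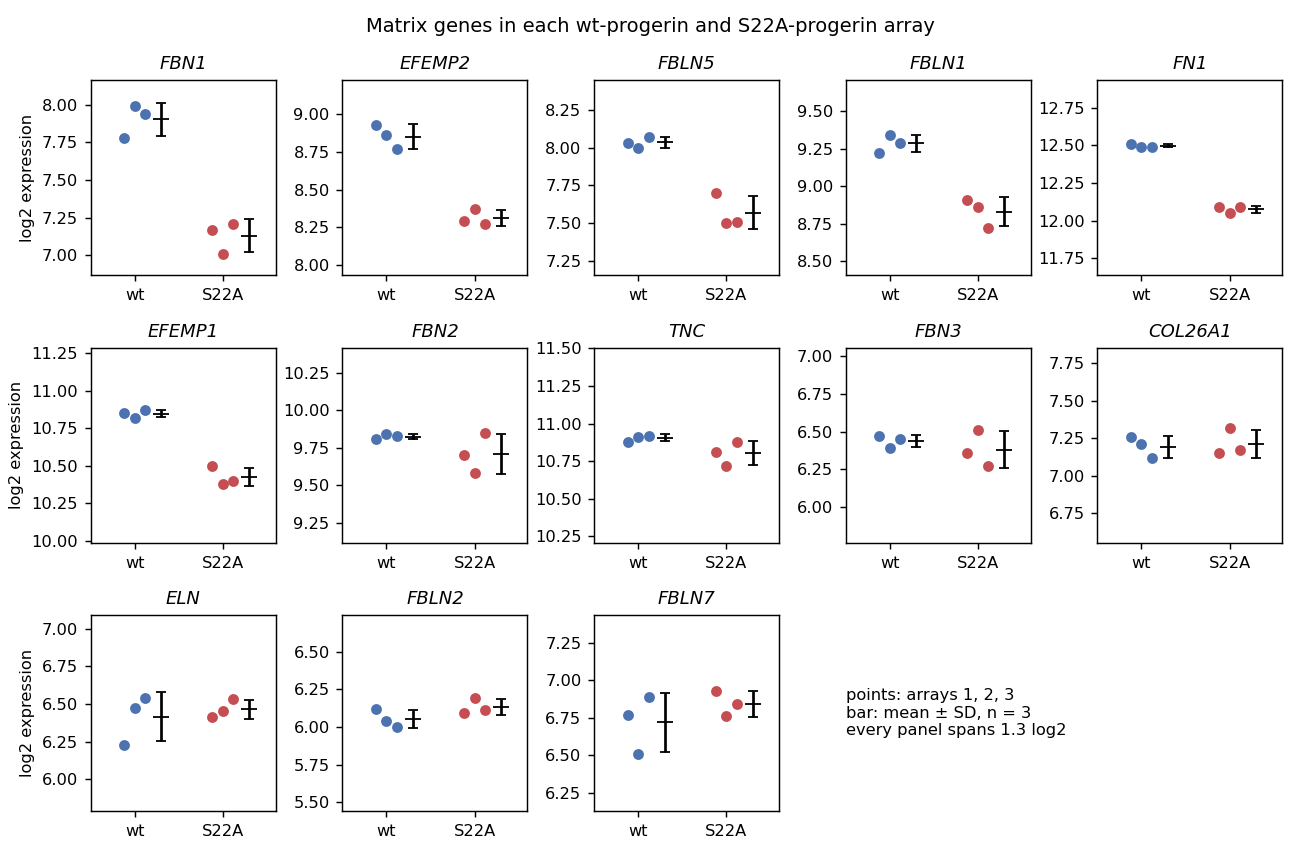
Log2 expression of the 13 matrix genes in each array (blue points wt-progerin, red points S22A-progerin, replicates 1 to 3 from left to right) with the mean ± SD of each group (n = 3); every panel spans the same range of log2 units. In the 6 genes from FBN1 to EFEMP1 all red points lie below all blue points, and in the others the groups lie close together or overlap.

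FBN1 encodes fibrillin-1, the main protein of adult microfibrils, whose mutations cause Marfan syndrome. The wt-progerin arrays read 7.78, 7.99 and 7.94, and the S22A-progerin arrays 7.17, 7.01 and 7.21. The highest S22A-progerin array was thus below the lowest wt-progerin array. The means were 7.90 ± 0.11 and 7.13 ± 0.11 (SD, n = 3), a difference of -0.77 (SE 0.082, 95% interval -0.97 to -0.58), or 1.71-fold lower (adjusted p = 7.14e-04). This was the largest fall among the 13.

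FBN2, fibrillin-2 of developing tissues, did not pass. Its wt-progerin arrays read 9.81, 9.84 and 9.83, and its S22A-progerin arrays 9.70, 9.58 and 9.85. Replicate 3 of S22A-progerin was above all wt-progerin arrays and the others below them, so the groups overlapped. The difference was -0.12 (SE 0.074, 95% interval -0.29 to 0.06, adjusted p = 0.309), and this interval does not reach the fall of FBN1. FBN3, the third fibrillin, ranged over 6.39 to 6.47 in wt-progerin and over 6.27 to 6.51 in S22A-progerin, with a difference of -0.06 (95% interval -0.23 to 0.11).

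The stretches of 250 bases just before the starts of these paralogs are shown because FBN1 fell and FBN2 did not pass. They come from RefSeq on GRCh38.p14, 5′ to 3′ on the minus strand, at chr15:48644971-48645220 for FBN1 and chr5:128538246-128538495 for FBN2. Capitals mark matches, on either strand, to the short motifs searched.
FBN1: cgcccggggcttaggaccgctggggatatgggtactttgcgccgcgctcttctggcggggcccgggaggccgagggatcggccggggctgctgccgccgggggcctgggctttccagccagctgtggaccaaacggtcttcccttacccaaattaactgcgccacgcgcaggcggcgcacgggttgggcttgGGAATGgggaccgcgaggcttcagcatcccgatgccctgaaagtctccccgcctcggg
FBN2: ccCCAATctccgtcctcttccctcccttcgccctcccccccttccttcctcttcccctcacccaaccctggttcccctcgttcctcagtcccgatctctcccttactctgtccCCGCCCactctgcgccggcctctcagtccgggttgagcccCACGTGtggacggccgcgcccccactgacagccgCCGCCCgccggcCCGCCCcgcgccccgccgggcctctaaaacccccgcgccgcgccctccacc
The FBN1 stretch held the TEAD motif GGAATG 58 bases before the start and none of the other motifs. The same motif also lay before FBLN7 and before a start of FBN3, which did not pass. Whether any motif has a part in the falls was not tested. The FBN2 stretch held a CCAAT box, 3 GC boxes (GGGCGG) and an E-box (CACGTG).

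FN1 encodes fibronectin. Its probe set read 12.51, 12.49 and 12.49 on the wt-progerin arrays and 12.09, 12.05 and 12.09 in S22A-progerin. The groups were set apart by far more than the spread within them, at means of 12.50 ± 0.010 and 12.07 ± 0.025 (SD, n = 3). S22A-progerin minus wt-progerin came to -0.42 (SE 0.049, 95% interval -0.54 to -0.31), or 1.34-fold lower (adjusted p = 9.84e-04). The 250 bases before its start, at chr2:215436069-215436318 on the minus strand of GRCh38.p14, are shown because they are dense in the motifs searched.
FN1: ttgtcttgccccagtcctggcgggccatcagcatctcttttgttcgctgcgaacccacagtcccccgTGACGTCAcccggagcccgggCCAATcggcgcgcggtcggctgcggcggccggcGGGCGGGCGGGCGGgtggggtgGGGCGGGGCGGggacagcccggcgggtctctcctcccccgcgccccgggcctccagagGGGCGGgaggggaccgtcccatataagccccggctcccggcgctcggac
Capitals mark a CRE (TGACGTCA) 183 bases before the start, a CCAAT box 162 bases before it and 6 GC boxes, some of them overlapping.

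TNC, tenascin-C, is a large adhesion-modulating glycoprotein that binds fibronectin. Its wt-progerin values were 10.88, 10.91 and 10.92, and its S22A-progerin values 10.81, 10.72 and 10.88. The groups did not overlap by a narrow margin, with S22A-progerin replicate 3 closest to wt-progerin. The difference of -0.10 (SE 0.059, 95% interval -0.24 to 0.04) did not pass (adjusted p = 0.258).

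Of the 6 fibulins, 4 fell, where 14.6% of all genes were called lower. These 4 were above the median signal, where 23.6% of all genes were called lower. FBLN2 and FBLN7 were below it, where the share was 5.6%. EFEMP1, fibulin-3, is the one whose mutation causes a macular dystrophy. Its wt-progerin arrays read 10.85, 10.82 and 10.87 against 10.50, 10.38 and 10.40 with S22A-progerin. The wt-progerin arrays lay close together and above the other group. The difference was -0.42 (SE 0.055, adjusted p = 0.00171), or 1.34-fold lower. EFEMP2, fibulin-4, is needed for elastic fibres and for lysyl oxidase at the fibre. Its wt-progerin values of 8.93, 8.86 and 8.77 were all above its S22A-progerin values of 8.29, 8.37 and 8.27. The difference was -0.54 (SE 0.064, adjusted p = 0.00107), or 1.46-fold lower.

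FBLN5, fibulin-5, binds elastin, integrins and LOXL1. Its values were 8.03, 8.0 and 8.07 with wt-progerin, against 7.70, 7.50 and 7.51 with S22A-progerin. S22A-progerin replicate 1 was the highest of its group and still below wt-progerin. The difference was -0.47 (SE 0.069, adjusted p = 0.00291), or 1.38-fold lower. FBLN1, fibulin-1, binds fibronectin, laminin and nidogen. It went from 9.22, 9.34 and 9.29 to 8.91, 8.86 and 8.72, again with no overlap. The difference was -0.45 (SE 0.068, adjusted p = 0.00312), or 1.37-fold lower.

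The other fibulins did not pass. FBLN2, fibulin-2 of basement membranes and elastic fibres, had means of 6.05 ± 0.061 and 6.13 ± 0.056 (SD, n = 3), a difference of 0.08 (95% interval -0.06 to 0.22, adjusted p = 0.386). FBLN7, fibulin-7, ranged over 6.51 to 6.89 with wt-progerin and over 6.76 to 6.93 with S22A-progerin. Its difference of 0.12 had an interval of -0.12 to 0.36 (adjusted p = 0.459). In both the groups overlapped.

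ELN encodes tropoelastin, the soluble precursor of elastin. Its wt-progerin arrays read 6.23, 6.47 and 6.54 and its S22A-progerin arrays 6.41, 6.45 and 6.53, so the groups overlapped (difference 0.05, 95% interval -0.16 to 0.26, adjusted p = 0.74). COL26A1, a collagen first described in reproductive tissue, read 7.26, 7.21 and 7.12 in wt-progerin against 7.15, 7.32 and 7.17. Its difference of 0.02 (95% interval -0.15 to 0.18, adjusted p = 0.89) turned to -0.02 with the arrays median centred. The single collagen named here did not pass, and that says nothing of the other chains.

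**Figure D2:**
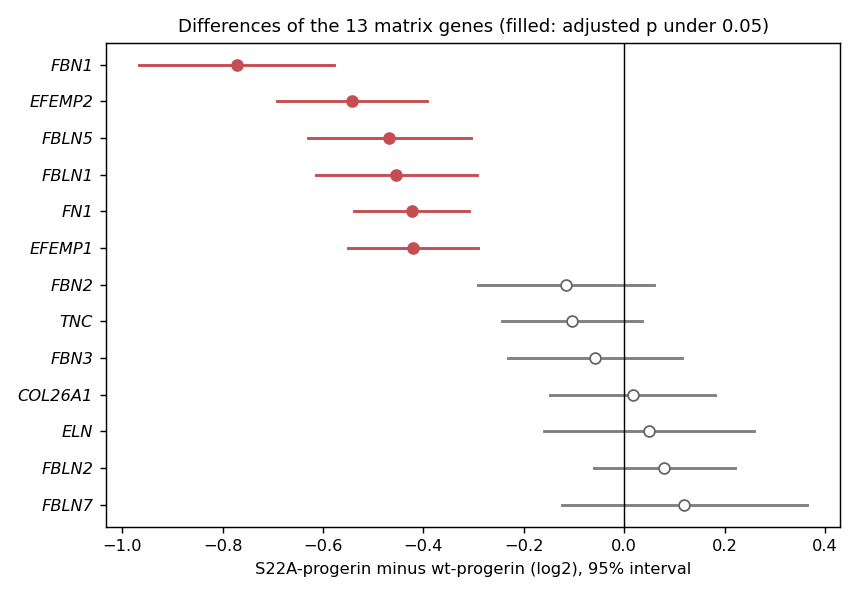
Difference of each of the 13 matrix genes (S22A-progerin minus wt-progerin, log2) with its 95% interval from limma; filled points passed at an adjusted p under 0.05. The intervals of the 6 genes that fell end at -0.29 or lower, and those of the other 7 include 0.

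Paired within each array, FBN1 dropped against FBN2 by a change of -0.66 in their log2 difference, and FBLN1 against FBLN2 by a change of -0.53. FBLN5 against FBLN7 changed by -0.59, FBN1 against FBN3 by -0.71 and FN1 against TNC by -0.32. In these 5 pairs the groups did not overlap, at exact permutation p = 0.1 each (two-sided), the smallest that 3 arrays against 3 allow. EFEMP1 against EFEMP2 changed by 0.12 with overlapping groups (exact permutation p = 0.2). The 6 pairs were chosen after the values were seen. In the 5 without overlap a gene that fell was set against a gene that did not pass, so they add no support. Over the 6 pairs the adjusted p was 0.12 at the lowest. With 0.1 as the smallest p possible, no pair could have passed at 0.05.

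By signal, 9 of the 13 genes were above the median signal of all genes and 4 below it. The 6 that fell were all among the 9, where 23.6% of all such bright genes were called lower, and 0 of the 4 fell, where the share of all such dim genes was 5.6%. Folds from low signals are compressed on these arrays. On simulated arrays with the real spreads, 50 of 14884 genes were changed at each size. There 16% of genes with a true difference of 0.3 were recovered and 72% of those with 0.6. On the real arrays 25.4% of all genes were called. With fewer genes changed the adjustment is stricter, so these shares can be too low for the real arrays. Small falls could still have been missed.

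**Figure D3:**
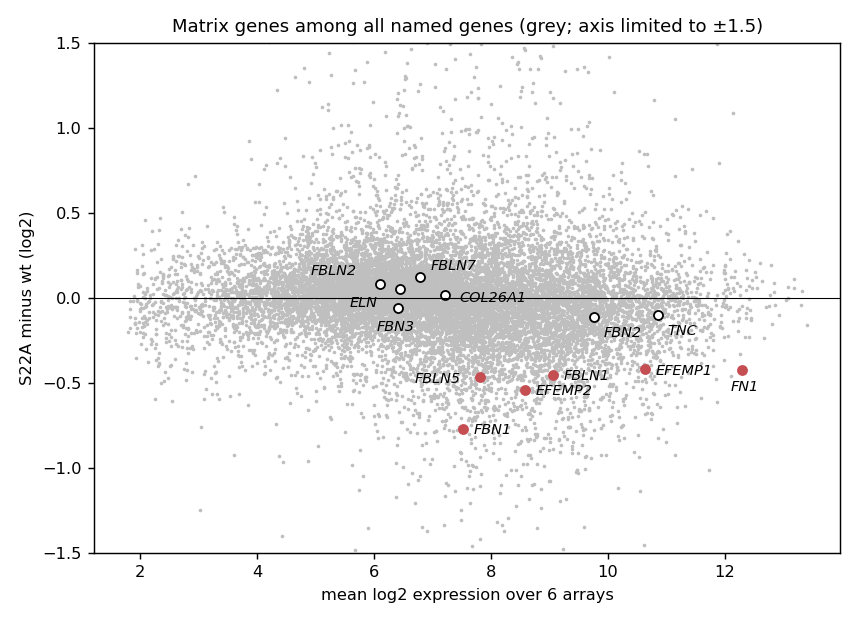
Mean log2 expression over the 6 arrays (horizontal) against the difference S22A-progerin minus wt-progerin (vertical, limited to 1.5 on either side) for all 14884 named genes in grey; filled points are matrix genes that passed, open ones did not. The 6 falls lie between -0.77 and -0.42 and reach up to the brightest genes, while FBN2 and TNC, also bright, lie near -0.1.

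Windows before the gene start were found in RefSeq for 11 of the 13 genes, 14 windows in all, since some genes have more than 1 start. EFEMP1 and ELN had none in that table. A GC box was in 11 of the 14 windows, against 42.6% of all 35116 windows of that length. The 14 windows were 48.8% to 81.6% G and C, and the median of all windows was 58.0%. Only the windows of TNC and of the second start of FBLN5 lay below that median. The GC box was not compared at equal G and C content. A CCAAT box was in 4 (32.0% of all), the TEAD motif in 3 (11.9%), the TATA box TATAAA in 1 (10.7%), the E-box in 1 (6.34%) and the CRE in 1 (1.65%). No window held the AP-1 motif TGANTCA (6.57% of all), the SMAD palindrome GTCTAGAC (0.182%) or the E2F motif TTTCGCGC (0.439%). Motifs were sought on both strands, and a match is a run of letters, not a known site.

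Genes that process, crosslink, anchor or sense these proteins were read from 6 lists. Of 59 measured genes outside the 13, 24 fell (40.7%) and 5 rose, with a median difference of -0.16. The same shares over all genes were 14.6% and 10.8%. Of the 59, 44 were above the median signal, where 23.6% of all genes were called lower, against 5.6% of the dimmer genes. The single lists below are short, so their counts are no result about a list.

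Lysyl oxidases oxidise lysines of collagen and elastin so that the chains can crosslink. Of 6 genes in the list for crosslinking, which also holds the protease FURIN, 4 fell and 1 rose. Over all genes 14.6% were called lower and 10.8% higher. LOXL1, the family member that works with fibulin-5 at elastic fibres, read 10.31, 10.24 and 10.24 on the wt-progerin arrays but 8.99, 8.85 and 8.91 on the S22A-progerin arrays. Its fall of 2.55-fold (difference -1.35, SE 0.059, adjusted p = 2.01e-05) was larger than that of any of the 13 matrix genes. LOXL4 fell by 0.83, LOXL2 by 0.44 and LOXL3 by 0.33 on the log2 scale. LOX itself had a difference of -0.15 and did not pass (adjusted p = 0.133). FURIN, a protease that cleaves proproteins in the secretory pathway, including profibrillin, rose by 0.28 (SE 0.058).

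Of 14 microfibril and elastic fibre partners, 5 fell and 0 rose, where 14.6% of all genes were called lower and 10.8% higher. FBLN5, which fell, is in this list and is also counted among the 13 matrix genes. LTBP1, a latent TGF-beta binding protein held on fibronectin and microfibrils, read 10.02, 10.01 and 9.98 on the wt-progerin arrays and 9.38, 9.38 and 9.28 in S22A-progerin. It was 1.57-fold lower (adjusted p = 2.57e-04). LTBP4 (-0.56), LTBP2 (-0.45) and MFAP2 (-0.52), the microfibril-associated glycoprotein MAGP-1, fell as well. LTBP3 (-0.03) and MFAP5 (0.03), the related MAGP-2, did not pass.

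Of 12 basement membrane partners, 6 fell and 1 rose, where 14.6% of all genes were called lower and 10.8% higher. HSPG2 (-0.51), which encodes perlecan, and AGRN (-0.39), agrin, are heparan sulfate proteoglycans that bind laminin. FRAS1 (-0.64) and FREM2 (-0.63), which form a complex under epithelia, fell, as did TINAGL1 (-0.54). FREM2 was dim, with means of 6.31 in wt-progerin and 5.68 in S22A-progerin. NID1 (-0.22), nidogen-1, which links laminin to collagen IV, also fell (adjusted p = 0.0428). With 1 array left out it was -0.26 to -0.18 and passed only in the fit without wt-progerin replicate 1. NTN4 (0.44), a netrin that binds laminin, rose, and no longer passed without S22A-progerin replicate 1 (0.37), wt-progerin replicate 1 (0.38) or wt-progerin replicate 2 (0.39). PXDN, peroxidasin, which crosslinks collagen IV, had means of 10.12 in both groups, with an interval of -0.11 to 0.11 for the difference.

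Of 29 listed genes of collagen maturation 12 were measured, of which 5 fell and 1 rose. The shares over all genes were 14.6% lower and 10.8% higher. PCOLCE (-0.66) enhances the removal of the C-propeptide, and BMP1 (-0.48) and TLL1 (-0.50) are the proteinases that remove it. TLL1 was dim, with means of 6.38 in wt-progerin and 5.88 in S22A-progerin. The prolyl 3-hydroxylases P3H2 (-0.28) and P3H1 (-0.28) fell. With 1 array left out P3H1 was -0.36 to -0.22 and passed only in the fit without S22A-progerin replicate 3. CRTAP, which forms a complex with P3H1, rose by 0.19 (adjusted p = 0.0321). It did not pass when any 1 of the 6 arrays was left out (0.17 to 0.21). PPIB (0.09), a prolyl isomerase of the same complex, did not pass.

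Of 5 receptors measured, 3 fell and 0 rose, where 14.6% of all genes were called lower and 10.8% higher. No integrin was among the 5. DDR2 (-0.49), a receptor tyrosine kinase for fibrillar collagen, and BCAM (-0.78), a laminin receptor, fell. GP6, known as the collagen receptor of platelets, fell from 8.15 to 6.84, 2.48-fold. DDR1 (0.01) did not pass. Of 21 listed genes of TGF-beta signalling 12 were measured, and no TGFB ligand or TGFBR receptor gene was among them. Of these 12, 3 fell and 2 rose, where 14.6% of all genes were called lower and 10.8% higher. So few calls are no result about the pathway. SMAD6, an inhibitory SMAD, fell by 1.03, SMAD4, the common SMAD, by 0.34 and LTBP1 as above. SMAD4 did not pass without wt-progerin replicate 3 (-0.30, adjusted p = 0.053). CCN2, connective tissue growth factor, which TGF-beta and mechanical load induce, rose 1.74-fold, with 11.50, 11.52 and 11.48 in wt-progerin and 12.32, 12.29 and 12.27 in S22A-progerin. SMURF1 (0.35), a ubiquitin ligase that acts on SMADs and receptors, rose as well.

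**Figure D4:**
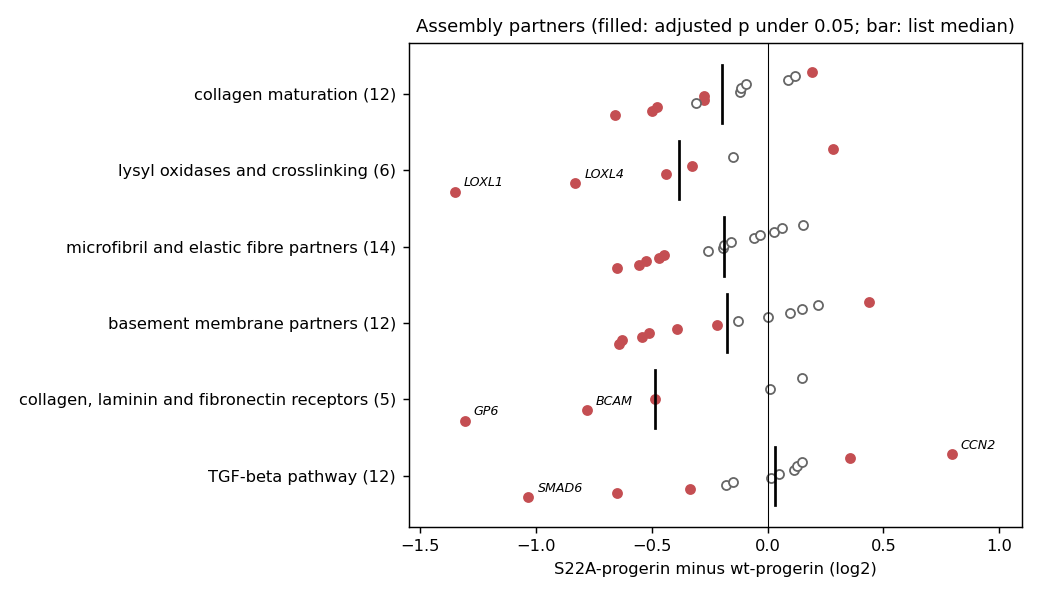
Differences (S22A-progerin minus wt-progerin, log2) of the genes in 6 partner lists, with the number measured in brackets; filled points passed at an adjusted p under 0.05 and the bar is the list's median. The median of each list lies below 0 except that of the TGF-beta pathway (0.03), and LOXL1 at -1.35 lies farthest from 0.

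Some markers of cell types were called, where 14.6% of all genes were called lower and 10.8% higher. The lists are short, so the counts are no result about a cell type, and single genes are given as values. Of 8 mesenchymal and bone lineage markers measured, SPP1 (1.18), ENG (0.80) and S100A4 (0.38) rose and RUNX2 (-0.74) and THY1 (-0.32) fell, with a mean level over the list of 7.28 to 7.35 in wt-progerin and 7.45 to 7.52 in S22A-progerin. Of 11 epithelial markers KRT18 (0.51) rose and KRT14 (-0.32) fell, at list means of 6.82 to 6.92 and 6.76 to 6.88. Of 6 endothelial markers CLDN5 (0.29) rose, at 5.98 to 6.19 and 6.11 to 6.22. Of 4 leukocyte markers CD68 (1.48) rose, at 6.28 to 6.39 and 6.72 to 6.92. The part of these changes in the falls of the matrix genes was not tested.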

How the data were processed

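Total RNA of 6 U-2 OS cultures was labelled for Affymetrix whole-transcript arrays, per the labels' protocols. The deposited values are log2 expression, which the submitters' processing notes credit to RMA and to Affymetrix Expression Console, run by the authors. RMA subtracts background, makes the arrays' distributions equal and merges probes into probe sets. Neither versions nor a genome build is named in the sources read here. Groups came from the sample titles.

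Of 53617 probe sets, 16098 had 1 gene symbol in the platform annotation, 0 had several and 37519 were not named here. RefSeq identifiers changed 0 symbols. Where a gene had several probe sets the brightest by mean was used, and each of the 13 matrix genes had 1. Differences were tested over 14884 genes with limma 3.58.1 in R 4.3.3 (lmFit, eBayes, 2 groups, two-sided, no filter), adjusted by Benjamini-Hochberg and called at 0.05. Simulated arrays had 50 of 14884 genes changed at each size, far fewer than were called on the real arrays. There 16%, 72%, 96% and 100% of genes changed by 0.3, 0.6, 1 and 2 were recovered. The number of arrays limits the precision, and p-values reflect only the spread among these arrays.

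The matrix genes and lists were chosen with earlier results of these data known. The naming rule took LMNA, the matrix genes that passed, the 2 brightest of each kind and the 3 partners of each list with the smallest p, and the other matrix genes are given so that all 13 are accounted for. Other partners and the markers were named after their values were seen. Alternatives covered normalization, dim genes, probe sets, variance priors, array weights, replicate numbers, single arrays left out and the threshold.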

Additional observations from a re-analysis of the deposited data

How the results depend on the processing

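The calls and directions of FBN1, EFEMP2, FBLN5, FBLN1, FN1 and EFEMP1 were the same in all 96 results for these 6 genes under the alternatives, and the count of 6 lower and 0 higher held in each alternative. At a threshold of 0.01 the counts over all genes were 1226 lower and 852 higher, and 2 partner genes rose. The partners that rose numbered 8 with the dimmer 50% of genes left out and 8 with an intensity trend in the prior, and 3 to 4 with single arrays left out. The median of the matrix genes was -0.42 over the 9 left without the dimmer genes, and -0.185 to -0.11 with single arrays left out, where S22A-progerin replicate 3 moved it most. LMNA passed with repeated quantile normalization (0.17) and without dim genes (0.15). COL26A1 turned to -0.017 with median centring and ran from -0.037 to 0.050 with single arrays left out, and ELN from -0.042 to 0.113.

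Arrays with the same replicate number did not deviate together (correlations of -0.055 to -0.0056), so the numbers were not taken as pairs. With the replicate number as a block, 6 matrix genes were lower and 0 higher, 22 partners fell and 4 rose, and 1705 of all genes were lower and 1285 higher. CRTAP, P3H1 and NID1 did not pass in that fit, nor, among relatives, did ECM1. With 3 arrays a group and no background signal used here, small changes of dim genes are not resolved.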

Other observations

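Relatives of the matrix genes in other secreted families were read from a list of 36 genes, written after the values of the matrix genes were known. Of 26 measured, 5 fell and 3 rose, with a median difference of -0.0038. These shares of 19.2% and 11.5% lie near the 14.6% and 10.8% of all genes, so the counts are no result about the relatives, and single genes are given as values. The cartilage matrix adaptor MATN3, matrilin-3, fell from 9.28 to 8.18, or 2.14-fold (SE 0.107, adjusted p = 4.75e-04), and MATN2, matrilin-2, fell by 0.70 on the log2 scale. HMCN1, hemicentin-1, which is also called fibulin-6 but lies outside the rule by its symbol, read 6.78, 6.91 and 6.88 with wt-progerin and 5.95, 5.79 and 5.93 with S22A-progerin. That was 1.96-fold lower (adjusted p = 1.26e-04), a larger fall than in any of the 6 fibulins of the report. FSTL1, a secreted relative of SPARC, fell from 10.33 to 9.41, 1.89-fold. MGP (-0.34), an inhibitor of calcification, also fell, but with 1 array left out (-0.41 to -0.25) passed only without S22A-progerin replicate 2 or 3. MGP was dim, with means of 5.76 in wt-progerin and 5.42 in S22A-progerin.

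Of 5 genes of the CCN family measured, 2 rose and 0 fell, where 10.8% of all genes were called higher and 14.6% lower. These 5 are part of the 26 relatives, so this count is no result about the family. CCN3 went from 8.53, 8.55 and 8.68 in wt-progerin to 10.01, 9.93 and 9.82 in S22A-progerin, 2.52-fold higher (adjusted p = 5.00e-05), beside the rise of CCN2. CCN4 (-0.24), CCN5 (0.06) and CCN6 (0.07) did not pass. ECM1 (0.46), a secreted glycoprotein that binds perlecan, rose, but with 1 array left out (0.37 to 0.58) passed only without replicate 2 of either group. The thrombospondins THBS1 (-0.18), THBS2 (0.12), THBS3 (-0.19), THBS4 (0.02) and COMP (0.06) did not pass, and neither did the tenascin genes TNN (-0.0038) and TNXB (-0.0037).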
